A study of Mus musculus with 4 samples.

Results

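The membrane-anchored serine proteases that act at the surface of epithelial cells, their Kunitz-type inhibitors and the subunits of the epithelial sodium channel were examined in mouse kidney tubular cells. The genes were the proteases Prss8, St14, Tmprss2, Tmprss4 and Hpn, the inhibitors Spint1 and Spint2, and the channel subunits Scnn1a, Scnn1b and Scnn1g. Every probe that the array names for one of these 10 genes was taken, which gave 13 of the 39429 probes for transcripts. Prss8, Spint1 and Spint2 had 2 probes each and the other genes 1.

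Total RNA came from primary tubular cells of SerpinB2-/- kidneys (2 samples) and wild type kidneys (2 samples), each hybridised to its own one-colour array. SerpinB2-/- mice lack plasminogen activator inhibitor-2, a serpin that inhibits urokinase. All mice, of both genotypes, were 8-week-old males with a B6.J background, and all cells received 100 ng/ml of PMA, a phorbol ester and activator of protein kinase C. The series held no cells without PMA, so the channel and its proteases could be compared between genotypes only in its presence. The labels leave out the extent of the Serpinb2 deletion, and they do not state that the samples came from separate animals or cultures. The p-values and standard errors rest on the spread among these 4 samples, which may be technical. The fit drew the spread of each probe toward a value shared by all tested probes. With each probe's own spread alone, 0 of the 24172 tested probes passed. An exact two-sided test of 1 value cannot go below p = 0.333 with 2 arrays against 2.

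Prostasin, the product of Prss8, is held to the cell surface by a lipid anchor, and matriptase, the product of St14, spans the membrane. The pair activate each other and cut surface proteins of many epithelia. The sodium channel is built of an alpha, a beta and a gamma subunit, the products of Scnn1a, Scnn1b and Scnn1g. It admits sodium across the apical membrane of the connecting tubule and collecting duct under the control of aldosterone. Furin cuts the channel on its way to the surface, and prostasin can promote a further cut in the gamma subunit that raises channel activity. Spint1 and Spint2 encode membrane-bound inhibitors of matriptase, prostasin and hepsin, the product of Hpn.

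The probes that set the result were short, and each reads 1 place of its transcript. The first 3 sequences below are from the probes with the lowest values in SerpinB2-/- cells relative to wild type, for Tmprss2, Scnn1a and Hpn. The next 2 are from the beta and gamma subunit probes, which were not detected, and the last 2 from the Spint2 probes, which were detected and passed no threshold. Each line gives 30 of the probe's 60 bases, as the array files hold them, and capitals mark the hexamer AATAAA of polyadenylation signals. The hexamer was in 3 of the 13 probes, those of Hpn, Scnn1g and 1 of Prss8. The Scnn1g probe was also the poorest in G and C, at 20.0%, where the other members' probes had 38.3% to 65.0%.
Tmprss2, chr16:97786692-97786751 (mm9, minus strand): gaagttcctagcttcagataaagatgaaag
Scnn1a, chr6:125294843-125294902 (mm9, plus strand): tgggtagactgaactgtgctcagggatgag
Hpn, chr7:31883750-31883809 (mm9, minus strand): tgctctttaaatAATAAAggtggttttgat
Scnn1b, chr7:129061584-129061643 (mm9, plus strand): ccacccagcaactagtgaactcaaaactga
Scnn1g, chr7:128911932-128911991 (mm9, plus strand): ctagtgtttataAATAAAgttttattgata
Spint2, chr7:30066532-30066591 (mm9, minus strand): ttggtagcttcgctgctcctctccggggcc
Spint2, chr7:30041332-30041381 (mm9, minus strand, the position the files give for the second probe): aaccgggagtacaacttgtgctgtttaaaa

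RefSeq promoter sequences (GRCm38.p6) were at hand for 6 of the 10 genes, in 7 entries: Tmprss2, Hpn (2 starts), Spint1, Spint2, Scnn1b and Scnn1g. The 250 bases before each start were searched on both strands for 12 motifs. Grainyhead-like factors, among them Grhl2, bind AACCGGTT in epithelial genes. That full site was in 0 of the 7 member windows and in 0.1% of the 32851 windows of all entries. Its shorter core AACNGG, which lies within the full site, was in 4 of 7, against 32.1% of all windows. The GC box GGGCGG was in 5 of 7 (32.7% of all), the E-box CACCTG in 3 (17.2%), the AP-2 site GCCNNNGGC in 2 (13.7%), the HNF1 core GTTAAT in 1 (6.4%) and the ETS site CCGGAA in 1 (3952 of the 32851). The AP-1 site TGANTCA (6.7% of all), the steroid receptor site ACANNNTGT (5.8%) and the CRE TGACGTCA (1.5%) were in none of the 7. The letters GGGANTTCC, searched for NF-kB (1.4%), and a paired core at a fixed spacing, searched for p53 (0.7%), were in none either. Other forms of NF-kB and p53 sites were not searched, so these absences do not show that the windows lack such sites. Tmprss2, Spint1 and Spint2 are printed because they stand for the lowest protease, the inhibitor that fell and the inhibitor that did not pass. Capitals mark the shorter core AACNGG on either strand, a choice made after its matches were seen. It lies 86 bases before the start of Tmprss2 and 63 before that of Spint1, and these letters are not in the Spint2 window. Of the windows not printed, it is in that of Scnn1b, which was not detected, and in 1 of the 2 Hpn windows.
Tmprss2, chr16:97611196-97611445 (GRCm38.p6, minus strand): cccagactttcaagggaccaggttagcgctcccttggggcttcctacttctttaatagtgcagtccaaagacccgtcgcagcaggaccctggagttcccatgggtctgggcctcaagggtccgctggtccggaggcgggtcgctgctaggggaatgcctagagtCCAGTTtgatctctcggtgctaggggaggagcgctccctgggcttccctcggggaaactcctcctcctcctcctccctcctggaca
Spint1, chr2:119237110-119237359 (GRCm38.p6, plus strand): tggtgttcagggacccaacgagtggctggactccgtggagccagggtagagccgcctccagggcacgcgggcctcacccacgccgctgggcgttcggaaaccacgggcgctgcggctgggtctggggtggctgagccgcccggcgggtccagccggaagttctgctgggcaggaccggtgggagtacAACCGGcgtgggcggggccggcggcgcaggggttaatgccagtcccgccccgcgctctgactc
Spint2, chr7:29281978-29282227 (GRCm38.p6, minus strand): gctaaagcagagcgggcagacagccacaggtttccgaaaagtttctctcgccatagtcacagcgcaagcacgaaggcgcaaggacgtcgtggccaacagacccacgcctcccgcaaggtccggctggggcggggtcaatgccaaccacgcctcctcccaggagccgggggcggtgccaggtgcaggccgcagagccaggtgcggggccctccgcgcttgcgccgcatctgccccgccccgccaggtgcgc

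The arrays were of similar brightness. The 75th percentile of the signal was 1908 to 2143 units on SerpinB2-/- arrays and 1902 to 2068 on wild type arrays, 313 to 385 times the median negative control. Signals below are scaled to a shared 75th percentile of 2003 units. The lowest scaled signal that counted as well above background was 23.0 to 24.8 units, and no spot was saturated. Serpinb2 gave 5.47 and 7.39 units in SerpinB2-/- cells, both under that detection level, against 3207 and 3276 in wild type, and was at least 140-fold lower. All 13 markers of simple epithelium were detected, as were the proximal tubule receptors Lrp2 and Cubn and the collecting duct water channel Aqp2. Of the 16 proximal tubule markers, Fbp1, Slc13a3, Slc22a8 and Slc5a12 were detected on no array. Of the principal and connecting cell markers, which belong to the cells that carry the channel in kidney, Avpr2, Calb1, Elf5, Fxyd4 and Trpv5 were detected on no array.

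The proteases, Spint1 and the alpha subunit of the channel were lower in SerpinB2-/- cells than in wild type. Of the 10 member probes detected and tested, 8 fell and 0 rose at an adjusted p under 0.05 (limma, Benjamini-Hochberg over 24172 probes). In the same comparison 10.2% of all probes fell and 5.79% rose. By genes, each read at its brightest probe, Prss8, St14, Tmprss2, Hpn, Spint1 and Scnn1a fell, 6 of the 7 tested, against 9.75% lower and 6.04% higher among all 18390 genes. Spint2 did not pass, and Tmprss4, Scnn1b and Scnn1g were well above background in neither genotype. The median log2 change of the 7 genes was -0.90, and that of all genes 0.01. The groups of all 7 tested genes did not overlap, with both SerpinB2-/- arrays below both wild type arrays, as for 31.9% of all genes. In these bulk samples, fewer cells of a type and less RNA per cell cannot be told apart.

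**Figure D1:**
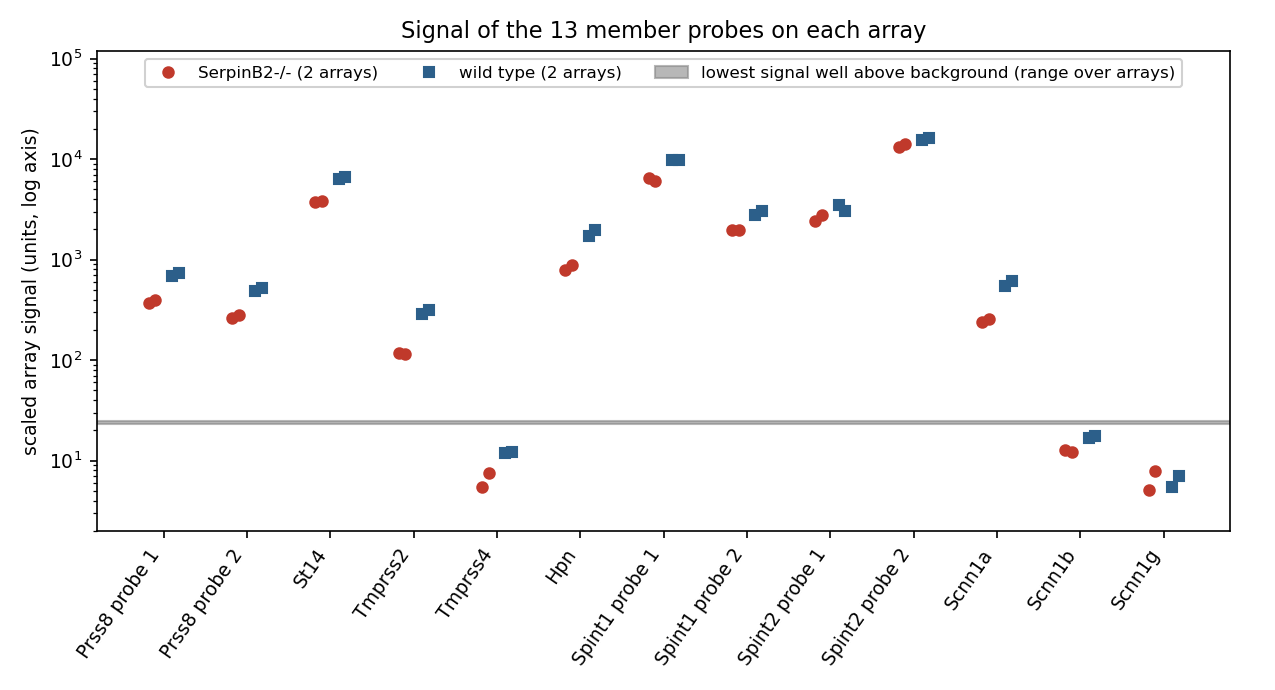
Scaled signal of the 13 member probes on each array (log axis, units), SerpinB2-/- arrays as circles left of wild type arrays as squares; the grey band is the lowest signal counted as well above background, 23.0 to 24.8 units. The 10 tested probes have both circles below both squares, and Tmprss4, Scnn1b and Scnn1g lie under the band on all 4 arrays.

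Among the proteases, Tmprss2 had the lowest ratio between the genotypes. Its product is an androgen-regulated transmembrane protease, known also for priming viral surface proteins. Its signal was 118 and 114 units in SerpinB2-/- cells, against 286 and 316 in wild type. That is 38.6% of the wild type level, a log2 change of -1.37 ± 0.07 (SE, n = 2 per group, 95% interval -1.56 to -1.18, adjusted p = 0.00672). The 2 arrays of each genotype lay close together, and the groups were far apart. By log2 change it was probe number 87 from the bottom of all 24172.

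Hpn, the gene of hepsin, a transmembrane protease abundant in liver and kidney that can cleave uromodulin, was second among the proteases. It gave 792 and 893 units in SerpinB2-/- cells, against 1731 and 1990 in wild type, or 45.3% of wild type. The log2 change was -1.14 ± 0.10 (95% interval -1.40 to -0.88, adjusted p = 0.00791). Neither SerpinB2-/- array reached the lower wild type array.

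Prss8 was read at 2 places on chromosome 7, and both gave the same picture. The brighter probe, at 135069232 to 135069291 (mm9), had 372 and 395 units in SerpinB2-/- cells and 691 and 743 in wild type. The other, at 135069848 to 135069907, had 265 and 281 units in SerpinB2-/- cells and 486 and 526 in wild type. Prostasin transcripts were thus at 53.5% and 54.0% of wild type by the separate probes, with log2 changes of -0.90 ± 0.07 and -0.89 ± 0.07 (adjusted p = 0.00700 and 0.00727).

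St14, the gene of matriptase, on chromosome 9 at 30897249 to 30897308 (mm9), gave 3725 and 3850 units in SerpinB2-/- cells, against 6365 and 6682 in wild type. This was 58.1% of wild type, a log2 change of -0.78 ± 0.06 (95% interval -0.94 to -0.62, adjusted p = 0.00708). The spread between arrays of a genotype was small beside the gap between genotypes. Tmprss4, a transmembrane protease that has been linked to channel cleavage in Xenopus oocytes, gave 5.49 and 7.46 units in SerpinB2-/- cells and 11.9 and 12.1 in wild type. All 4 values lie below the detection level, so no difference was tested.

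**Figure D2:**
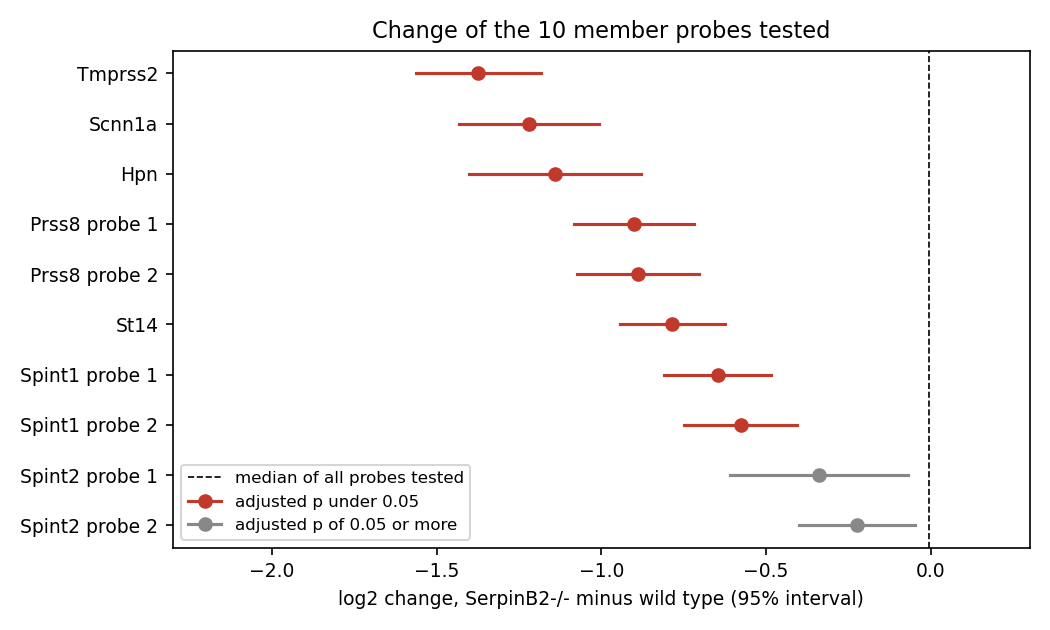
Log2 change of the 10 tested member probes, SerpinB2-/- minus wild type, with 95% intervals from the fit (n = 2 arrays per group); the dashed line is the median of all probes tested. Tmprss2, Scnn1a and Hpn lie below -1.1, and the Spint2 probes, at -0.34 and -0.22, are the ones with an adjusted p of 0.05 or more.

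Of the inhibitors, Spint1 fell and Spint2 did not pass the test. Spint1, an inhibitor needed for placental and epidermal integrity in mice, was read by 2 probes that share 3 bases at their ends on chromosome 2. The brighter, at 119074929 to 119074988 (mm9), had 6451 and 6054 units in SerpinB2-/- cells, against 9756 and 9815 in wild type. The dimmer, at 119074872 to 119074931, had 1969 and 1954 units in SerpinB2-/- cells and 2813 and 3045 in wild type. Both probes thus gave SerpinB2-/- arrays below wild type arrays, at 63.9% and 67.0% of wild type. The log2 changes were -0.65 ± 0.06 and -0.58 ± 0.07 (adjusted p = 0.00879 and 0.0116). Each of these calls was lost with 1 array left out: without wild type replicate 1 the brighter probe had an adjusted p of 0.0503, and without wild type replicate 2 the dimmer had 0.0502.

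Spint2, whose product inhibits matriptase and prostasin and whose loss in humans causes congenital sodium diarrhoea, missed the threshold at both its probes. Its brighter probe gave 13179 and 14041 units in SerpinB2-/- cells and 15431 and 16345 in wild type. Its other probe gave 2411 and 2780 units in SerpinB2-/- cells and 3503 and 3065 in wild type. The lower wild type array was above both SerpinB2-/- arrays at either probe. The log2 changes were -0.22 ± 0.07 (95% interval -0.40 to -0.05, adjusted p = 0.0899) and -0.34 ± 0.11 (-0.61 to -0.07, adjusted p = 0.0921). With a fit that lets the spread follow the signal, both probes passed (adjusted p = 0.0416 and 0.0476).

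The change of a protease can be set against that of an inhibitor within each array. Relative to Spint2, the wild type mean set to 0, St14 was at -0.54 and -0.58 on the log2 scale on the SerpinB2-/- arrays and at 0.01 and -0.01 on the wild type arrays. Relative to Spint1, St14 was at -0.21 and -0.07 on the SerpinB2-/- arrays and at -0.03 and 0.03 on the wild type arrays, so its gap to this inhibitor was narrow. The SerpinB2-/- mean of Prss8 was at -0.68 relative to Spint2 and at -0.26 relative to Spint1. That of Hpn was at -0.92 and -0.49, and that of Spint1 relative to Spint2 at -0.42. In each of these 7 pairs the groups did not overlap, yet the exact two-sided permutation p was 0.333 for each, also after adjustment, the smallest this design allows. Protein and protease activity were not measured.

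**Figure D3:**
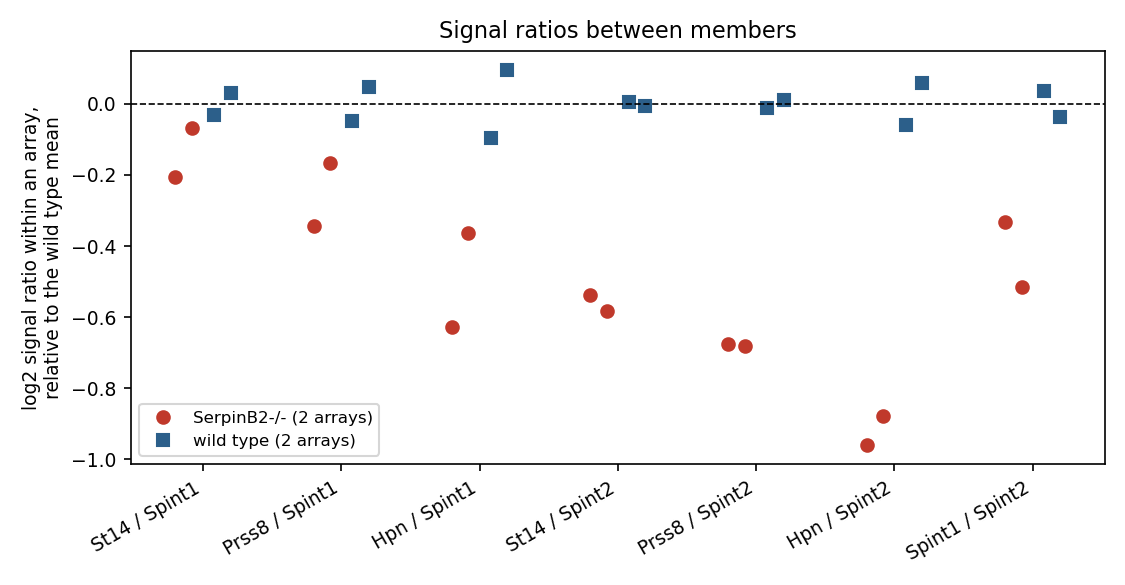
Log2 signal ratio of 7 pairs of members within each array (vertical axis, log2 units), set to 0 at the wild type mean; SerpinB2-/- arrays are circles and wild type arrays squares. The circles lie below the squares in every pair, from St14 over Spint1, with -0.21 and -0.07, to Hpn over Spint2, with -0.96 and -0.88.

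Of the sodium channel, the alpha subunit alone was measured above background. Scnn1a gave 239 and 256 units in SerpinB2-/- cells, against 544 and 611 in wild type. Both SerpinB2-/- arrays were far below both wild type arrays, at 42.9% of wild type. The log2 change was -1.22 ± 0.08 (95% interval -1.43 to -1.01, adjusted p = 0.00678). On SerpinB2-/- replicate 1 the 4 spots of the probe were 209, 209, 215 and 350 units, and the highest of these was still below the lowest wild type spot, at 507 units.

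The beta subunit gene Scnn1b had 12.8 and 12.2 units in SerpinB2-/- cells and 16.8 and 17.4 in wild type. The gamma subunit gene Scnn1g had 5.07 and 7.88 units in SerpinB2-/- cells and 5.40 and 7.06 in wild type. All lie below the detection level, so these probes do not show whether the transcripts differed or were present at a low level. Of the acid-sensing channels of the same family 3 genes were tested (Asic3, Asic4 and Asic5), and 0 passed by limma, also at an unadjusted p under 0.05. Asic3, for one, had 101 and 109 units in SerpinB2-/- cells and 117 and 102 in wild type.

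Other membrane-anchored or surface-acting proteases were counted from a list of 23. Of these 13 were detected on no array, and of the 10 tested 5 fell and 0 rose, with a median log2 change of -0.43 (0.01 over all genes). Tmprss11e, a protease of squamous epithelium, had 171 and 129 units in SerpinB2-/- cells and 338 and 429 in wild type (log2 change -1.36 ± 0.18, adjusted p = 0.0143). The proprotein convertase Pcsk6 fell by 0.97 ± 0.07, and Prss22, a tryptase of airway epithelium, fell by 0.85 ± 0.07 on the log2 scale. Tmprss11f was well above background in wild type alone and was at least 1.52-fold lower. Its call was lost with normexp background correction (log2 change -0.16, adjusted p = 0.206), with quantile normalization (0.0573) and without wild type replicate 1 or 2 (0.0895 and 0.0873). The urokinase gene Plau was the remaining one that fell (-0.68 ± 0.12, adjusted p = 0.0252), a call lost without wild type replicate 2 or SerpinB2-/- replicate 2 (0.0710 and 0.0693). Without wild type replicate 2 the list had 3 that fell, and with median scaling 5 fell and 2 rose. Its median was -0.17 with normexp and -0.18 over the probes detected on all arrays. Furin, which cuts the channel inside the cell, had 20601 and 21398 units in SerpinB2-/- cells and 20868 and 20576 in wild type (0.02 ± 0.06, adjusted p = 0.847).

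Of 20 other inhibitors of trypsin-like proteases 13 were tested, 1 fell and 0 rose, with a median of -0.07. The one that fell was Wfdc2, a secreted epithelial protein with whey acidic protein domains, with 15441 and 15652 units in SerpinB2-/- cells and 28199 and 30730 in wild type. Its log2 change was -0.92 ± 0.07 (adjusted p = 0.00700), and a second probe gave -1.01. Without SerpinB2-/- replicate 2 the list had 3 that fell and 1 that rose, with a trended fit 2 and 0, and with median scaling 1 and 2. Serpine2, the gene of protease nexin, which inhibits prostasin, had 673 and 808 units in SerpinB2-/- cells and 990 and 922 in wild type (-0.37 ± 0.11, adjusted p = 0.0753).

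Of 27 genes that set the abundance or activity of the channel, 25 were tested, 3 rose, 3 fell and the median was 0.09. Sgk1, an aldosterone-induced kinase that keeps the channel at the surface, was higher, with 23679 and 24888 units in SerpinB2-/- cells and 18695 and 18635 in wild type (0.38 ± 0.06, adjusted p = 0.0219). That call ended with any 1 of the 4 arrays left out (adjusted p = 0.0594 to 0.0997). Nedd4l, the ligase that removes the channel and is a target of that kinase, had log2 differences of -0.05 at both its probes (adjusted p = 0.609 and 0.744). Hsd11b2, which shields the mineralocorticoid receptor from glucocorticoids, was lower, with 82.3 and 67.9 units in SerpinB2-/- cells and 168 and 153 in wild type (-1.10 ± 0.11, adjusted p = 0.00925, and -0.66 with normexp).

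The receptor gene itself, Nr3c2, was near background at 28.2 and 26.8 units in SerpinB2-/- cells and 31.6 and 35.3 in wild type (-0.28 ± 0.08, adjusted p = 0.0747), with 1 of the 2 SerpinB2-/- arrays above the detection level. Tsc22d3, a steroid-induced partner of Sgk1, differed by 0.23 ± 0.11 (adjusted p = 0.215). The other genes of this list named by size were Ndrg2, an aldosterone-responsive gene, which fell by 0.78 ± 0.06, and Aldh1a3, a retinoic acid-producing enzyme, which rose by 0.63 ± 0.12. The sodium pump subunit Atp1b1 fell by 0.45 ± 0.06. The calls of Aldh1a3 and Atp1b1 were each lost with 1 of 3 arrays left out (adjusted p = 0.0720 to 0.0894 and 0.0567 to 0.0735): wild type replicate 1 and either SerpinB2-/- replicate for Aldh1a3, and either wild type replicate and SerpinB2-/- replicate 2 for Atp1b1. The count of 3 that rose went to 9 with scaling by the median and 6 with a trended fit, and to 0 without wild type replicate 1 or either SerpinB2-/- replicate and 1 without wild type replicate 2.

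Of 21 substrates, partners and receptors of these proteases 16 were tested, of which 9 fell and 0 rose (median -0.61). The laminin chain gene Lama3 was lowest, with 1777 and 1690 units in SerpinB2-/- cells and 3643 and 4387 in wild type (-1.21 ± 0.10, adjusted p = 0.00756). The desmosomal cadherin gene Dsg2 fell by 0.92 ± 0.07, the E-cadherin gene Cdh1 by 0.79 ± 0.07 and the claudin gene Cldn7 by 0.74 ± 0.07. Epcam, whose product matriptase cuts, had 2062 and 2262 units in SerpinB2-/- cells and 2915 and 3556 in wild type (-0.58 ± 0.11, adjusted p = 0.0351). This call was lost without wild type replicate 2 (0.0847) or either SerpinB2-/- replicate (0.105 and 0.0633), and with the authors' table (0.0536). F2rl1, the gene of a protease-activated receptor that responds to matriptase signalling, differed by 0.06 ± 0.10 (adjusted p = 0.671).

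Of 26 transcription and splicing factors that act on epithelial genes 23 were tested, of which 10 fell and 3 rose (median -0.16). The list also holds Zeb1, Zeb2, Snai1 and Snai2, which repress such genes, so its counts and median pool factors of opposite action. Grhl2, a grainyhead-like factor of epithelial cells, had 947 and 941 units in SerpinB2-/- cells and 1459 and 1535 in wild type (-0.67 ± 0.06, adjusted p = 0.00812), and a dimmer probe was at least 1.92-fold lower. Tfap2b and Tfap2a, AP-2 factors of distal nephron and surface ectoderm, fell by 1.24 ± 0.06 and 0.94 ± 0.08. The ETS factor Ehf fell by 0.90 ± 0.10 and Gata3, a factor of the collecting duct lineage, by 0.78 ± 0.08. In the other direction, Hnf4a, also listed as a proximal tubule marker, was the largest of the 3 that rose (0.57, adjusted p = 0.0185 by limma). Without wild type replicate 1 Ehf and Gata3 no longer passed (adjusted p = 0.0512 and 0.0506), and the list had 4 that fell and 0 that rose, with a median of -0.30. None rose without wild type replicate 2 or SerpinB2-/- replicate 2 either, while 6 rose with median scaling (median -0.03) and 5 with a trended fit. The median was -0.10 with quantile normalization.

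**Figure D4:**
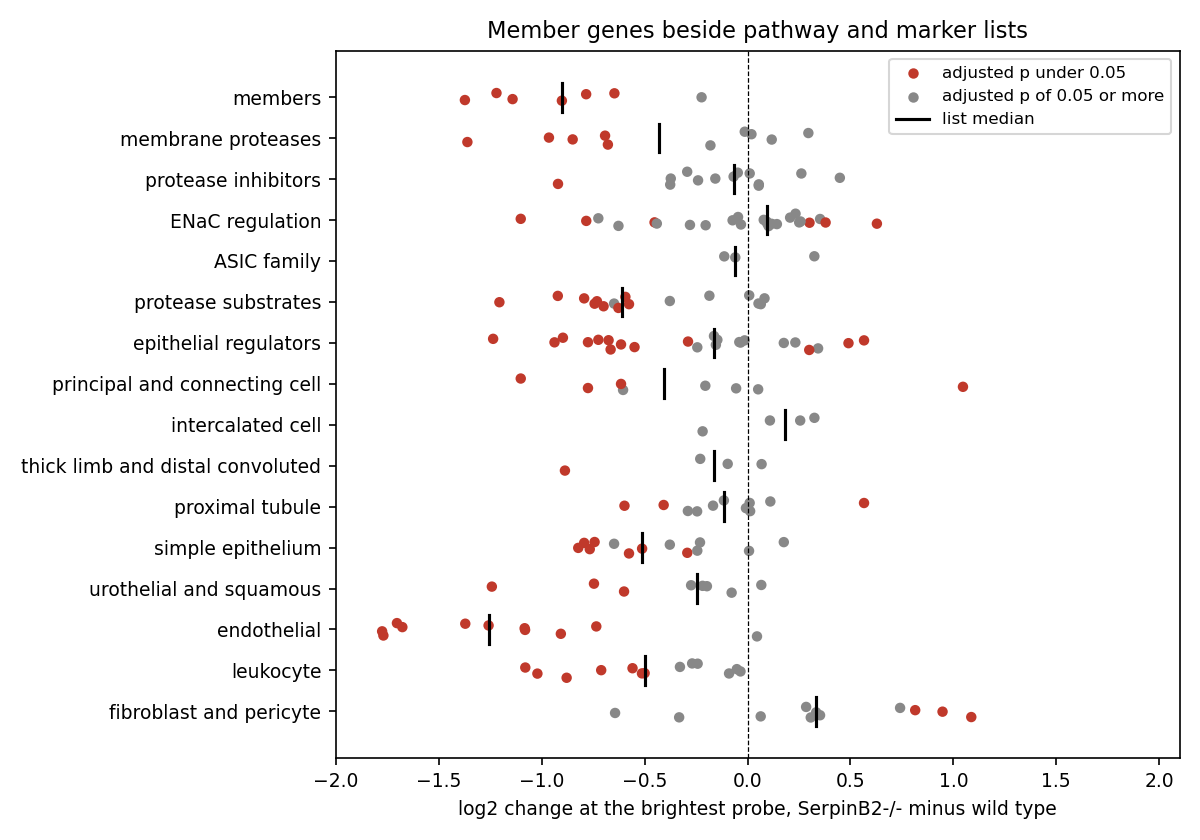
Log2 change at the brightest probe of each tested gene (horizontal axis, SerpinB2-/- minus wild type), by list; red points have an adjusted p under 0.05 and black bars are list medians. The members, with a median of -0.90, are in the top row, and the simple epithelium, endothelial and fibroblast lists have medians of -0.51, -1.26 and 0.33.

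Markers of cell types also differed between the genotypes, but their lists share genes with those above. Of the simple epithelium markers, Epcam, Cdh1, Cldn4, Cldn7 and Ocln were also listed among the substrates, and Pax2 and Pax8 among the epithelial factors. Of the 13 simple epithelium markers 7 fell and 0 rose, and their summed signal was 499569 and 524128 units in SerpinB2-/- cells and 647247 and 650684 in wild type. That count was 4 without wild type replicate 2 or without either SerpinB2-/- replicate. The members were also set against the mean of these 13 markers on the same array, a scaling chosen after the data were seen. Tmprss2 was then at -0.93, Scnn1a at -0.77, Hpn at -0.69, Prss8 at -0.45 and -0.44 and St14 at -0.34. Spint1 was at -0.20 and -0.13 on that scale. Spint2 turned to 0.22 at its brighter probe, where the groups did not overlap, and to 0.11 at the other, where they did. For the 8 probes that had fallen, both SerpinB2-/- arrays stayed below both wild type arrays. The marker mean had a log2 change of -0.45, and single markers ran from -0.82 to 0.18. Krt7, Cdh1, Krt19 and Cldn7 were at -0.82, -0.79, -0.77 and -0.74 before this scaling, and St14, at -0.78, lay among them.

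Of 13 principal and connecting cell markers 8 were tested, of which 3 fell (Hsd11b2, Gata3 and Tfcp2l1) and 1 rose (S100g), while without wild type replicate 1 the counts were 1 and 0. The call of S100g was lost without wild type replicate 2 as well (adjusted p = 0.0797). The 3 that fell were also counted above, Hsd11b2 among the genes that set the channel and Gata3 and Tfcp2l1 among the epithelial factors. The summed signal of the 13 principal and connecting cell markers was 21419 and 22336 units in SerpinB2-/- cells and 22689 and 22373 in wild type. Dim markers weigh little in these sums, such as Hsd11b2 and Aqp2 (148 and 161 units in SerpinB2-/- cells, 174 and 181 in wild type). The median log2 change of the 8 tested was -0.41 (-0.13 with normexp). Of the proximal tubule markers 11 were tested, of which 2 fell and 1, Hnf4a, rose (median -0.12). Those counts were 0 without wild type replicate 1 or 2. Of the intercalated cell markers 4 were tested and 0 passed (median 0.18), though 1 rose with median scaling or a trended fit. Of the thick limb and distal convoluted tubule markers 4 were tested, of which 1 fell and 0 rose (median -0.16). Endothelial markers fell in 10 of 11 tested, with sums of 6473 and 7972 units in SerpinB2-/- cells and 11066 and 10944 in wild type, and Erg and Tek were detected on no array. Without wild type replicate 1 or 2, that count was 2 or 3. Leukocyte markers, all 13 detected, fell in 7, with sums of 21608 and 20832 units in SerpinB2-/- cells and 26578 and 24401 in wild type. They fell in 2 without wild type replicate 1, and in 3 without wild type replicate 2 or SerpinB2-/- replicate 2, or with quantile normalization. Fibroblast and pericyte genes rose in 3 of 11 and fell in 0, and Lum and Rgs5 were detected on no array. Their sums were 370708 and 430644 units in SerpinB2-/- cells and 351614 and 284132 in wild type. Much of these sums came from Acta2, with 185900 and 226590 units in SerpinB2-/- cells and 188720 and 145833 in wild type, where the groups overlapped. Acta2 was not called by limma (adjusted p = 0.239), nor were the bright Col1a1 and Col1a2 (0.0971 and 0.113). The count of 3 that rose was 1 without either wild type replicate in turn, 7 with median scaling, 5 with a trended fit and 2 with quantile normalization or without SerpinB2-/- replicate 2. With dim probes kept or with the unmoderated test, none of the pathway and marker lists had a call. The part of any of these in the members' changes was not tested.

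The members' changes were recomputed under 17 other ways of processing. All 10 tested probes were below 0 in each of them. Tmprss2 ranged from -1.44 to -0.99, Scnn1a from -1.32 to -1.02, Hpn from -1.24 to -1.01 and St14 from -0.82 to -0.65. The calls of all 6 genes ended where dim probes were left in the fit (lowest member adjusted p = 0.0633) and where each probe was tested with its own spread alone (lowest 0.131).

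**Figure D5:**
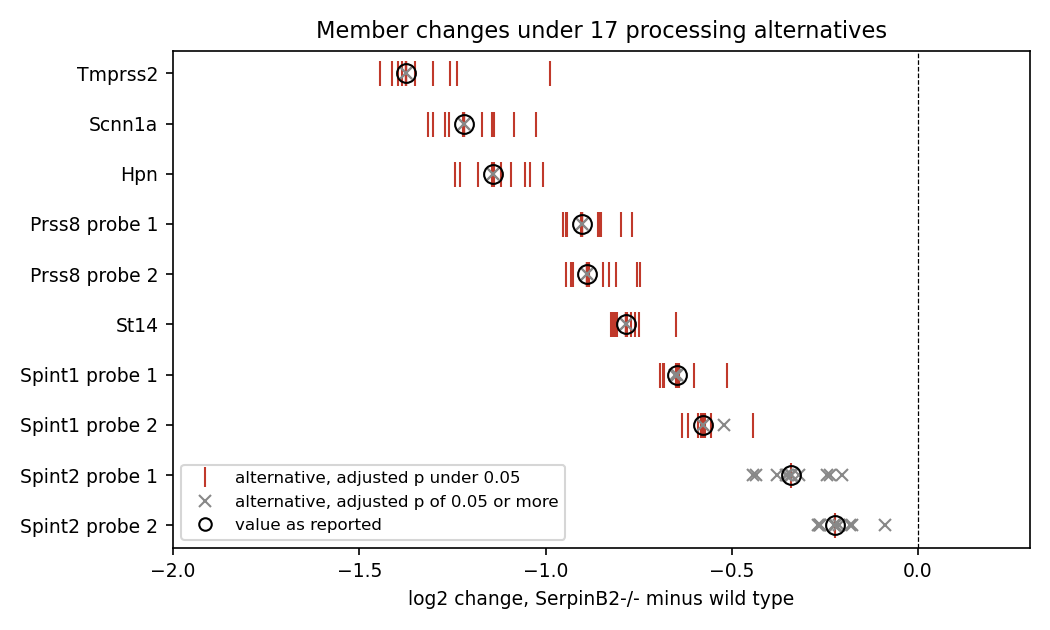
Log2 change of the 10 tested member probes (horizontal axis, SerpinB2-/- minus wild type) under 17 alternatives; red ticks have an adjusted p under 0.05, grey crosses do not, and circles are the reported values. Every mark lies left of 0, from -1.44 for Tmprss2 to -0.09 for the brighter Spint2 probe.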

How the data were processed

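Total RNA of 4 samples was hybridised to 4 one-colour Agilent arrays. The deposited intensity values were made by the authors with Agilent Feature Extraction 10.7.3.1, per the file headers and the submitters' processing notes, which subtracts background and detrends. All arrays lay on 1 slide with 1 scan time, per the file headers, wild type in the first positions, so position and genotype cannot be told apart. A deposited table of the authors' values, on a linear intensity scale (75th percentile 1500, lowest value 4, on every array) with medians of 68 and 71 (SerpinB2-/-) and 76 and 77 (wild type), served as an alternative. It followed the scanner intensity by 1 factor per array, 0.698 to 0.787 (95.0% to 95.9% of detected probes within 5%), with no centring of genes found. How it was made is not given in the sources used here.

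Control spots (17263) and outlier spots were left out and the 4 spots of a probe averaged on the log2 scale. Each array's 75th percentile was subtracted. A probe was tested if over 50% of its spots were well above background on both arrays of at least 1 genotype. Each probe was fitted with limma 3.58.1 in R 4.3.3 (lmFit, and eBayes with no intensity trend), SerpinB2-/- minus wild type, and p-values were adjusted by Benjamini-Hochberg over all 24172 probes, with a threshold of 0.05. A gene was read at its brightest passing probe. Of the probes, 28328 were named by accession and 243 by an older symbol through a RefSeq gene table (GRCm38.p6), 3400 had a symbol in it and 7458 were not in it and kept their name. Where a probe was dim on both arrays of a group, the bound sets the bright mean against the higher of its own signal and the lowest detected signal.

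The genes named were all members, Serpinb2, 10 genes of channel and protease control, and in each pathway list up to 4 with the largest change past the threshold. Plau, Hnf4a, Krt7, Krt19, the principal cell markers and the tubule markers are named beside this rule, after their values were seen. The members and lists were chosen with earlier results of these data known. The fitting procedure was tested on simulated data. The number of arrays limits the precision. Alternatives were other backgrounds, scalings, filters, variance models, the replicate number as a block and each array left out.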

Additional observations from a re-analysis of the deposited data

How the results depend on the processing

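Of 3858 probes past the threshold 2458 were lower and 1400 higher. The count was 6843 with median scaling (1623 lower, 5220 higher), which moved the median of all probes to 0.13, 4 with dim probes kept and 0 with an unmoderated test, where 5837 had an unadjusted p under 0.05. It was 770 to 1846 with 1 array left out (770 without wild type replicate 1, 1113 without wild type replicate 2). Other splits were 3090 lower and 1104 higher with scaling by detected probes, 1640 and 1471 with quantile normalization, 1688 and 1341 with normexp, and 2257 and 1231 with the authors' table. Of the members, 8 probes and 6 genes passed. With dim probes kept the count was 0 probes and 0 genes (11 of 13 at an unadjusted p under 0.05), and by the unmoderated test 0 and 0 (8 of 10). Without 1 array at a time 7 to 8 probes and 5 to 6 genes passed. Of 170 member values under the 17 alternatives 150 kept their side of the threshold, 18 lost it, 2 gained it and 0 changed sign. Relative to simple epithelium markers, a scaling added after the data were seen, Spint2 changed sign, to 0.22 at its brighter probe and 0.11 at the other. With the replicate block 2835 probes, 8 member probes and 6 member genes passed. The deviations of same-numbered arrays correlated at 0.213 over 24172 probes, from 2 pairs only, and the labels give the numbers no shared source, so they were not treated as pairs. Why these counts moved was not tested.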
